A study of Mus musculus with 4 samples.

Results

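A total of 1724 regions of open chromatin inside protein-coding genes had a peak in both control libraries and in neither esculetin library. They were found by merging the peaks of 4 ATAC-seq libraries into 35988 regions on chromosomes 1 to 19 and X of the mouse build mm10, and they were selected by these calls. Each has its centre inside a protein-coding gene, more than 3 kb from every transcription start site (TSS) and more than 1 kb from the 3′ end of every gene. They are called control-only gene-body regions here. In ATAC-seq a transposase cuts open DNA and adds sequencing adapters there, so that a peak marks a stretch where reads pile up.

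All 4 libraries came from RAW264.7, an immortal line of mouse macrophages of WT genotype, so that they describe 1 line and no primary macrophage. Every library received 25 ug/mL of DIL-oxLDL, an oxidized low-density lipoprotein with a fluorescent dye, for 24 h. The control group (n = 2) was given DMSO, and the esculetin group (n = 2) was given 40 ug/mL esculetin, a plant coumarin. The labels do not say whether libraries of a group came from separate cultures.

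Open stretches inside genes, far from their starts, are often enhancers in introns. In macrophages such elements are bound by the lineage factor PU.1 together with C/EBP, RUNX and AP-1 factors, and many of them open or close when the cell takes up lipid or meets a microbial signal. An open stretch is not by itself an enhancer.

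The control libraries had 19453 and 27698 peaks on these chromosomes, and the esculetin libraries had 8559 and 12660. The depth, as the background coverage solved from the fold and p of the peaks, was 6.51 and 4.08 in controls 1 and 2 and 4.97 and 4.10 in esculetin 1 and 2. Peaks in gene bodies away from starts and ends made up 21.6% and 31.5% of the regions of the control libraries and 9.36% and 13.8% of those of the esculetin libraries, so that list length and composition moved together with the calls that define the control-only regions, and their part in these calls was not tested. Of 10 macrophage markers, 4 and 6 had a promoter peak in the controls and 1 and 3 in the esculetin libraries. Spi1, which encodes PU.1, was among them in all 4 libraries. No marker of epithelium, fibroblasts, T cells, B cells, endothelium or kidney epithelium had a promoter peak in any library.

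The sequences of the regions themselves were not analysed here. The promoters of 4 of their host genes, chosen after their values were seen, are shown instead, because the data place peaks at them as well as inside the gene, and because the libraries with a promoter peak differ among the 4. Each sequence is the RefSeq promoter of GRCm38.p6 from 250 bases before to 50 bases after the start, and capitals mark letters that match CCAAT (the NF-Y box) or TGTGGT (the RUNX site) on either strand.
Plxna2 (chr1:194619579-194619878, plus strand; peaks in both controls and esculetin 2): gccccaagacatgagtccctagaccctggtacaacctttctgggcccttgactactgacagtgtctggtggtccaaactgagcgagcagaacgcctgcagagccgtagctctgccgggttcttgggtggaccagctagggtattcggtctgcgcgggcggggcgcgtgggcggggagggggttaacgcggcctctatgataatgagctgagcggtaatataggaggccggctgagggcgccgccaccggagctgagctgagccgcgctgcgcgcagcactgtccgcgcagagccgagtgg
Lrrk2 (chr15:91672974-91673273, plus strand; peaks in both controls): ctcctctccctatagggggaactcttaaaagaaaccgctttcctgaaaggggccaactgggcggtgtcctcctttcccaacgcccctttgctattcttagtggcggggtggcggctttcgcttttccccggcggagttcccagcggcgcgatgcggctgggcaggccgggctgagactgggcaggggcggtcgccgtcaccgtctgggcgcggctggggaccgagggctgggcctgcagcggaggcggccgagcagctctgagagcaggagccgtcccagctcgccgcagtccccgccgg
Rptor (chr11:119602655-119602954, plus strand; peaks in both controls): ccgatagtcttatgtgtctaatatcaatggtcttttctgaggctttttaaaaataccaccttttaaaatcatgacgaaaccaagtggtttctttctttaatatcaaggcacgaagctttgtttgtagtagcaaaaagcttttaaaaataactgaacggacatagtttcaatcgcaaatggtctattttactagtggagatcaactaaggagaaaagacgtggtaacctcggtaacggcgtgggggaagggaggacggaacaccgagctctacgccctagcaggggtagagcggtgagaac
Runx1 (chr16:92826025-92826324, minus strand; peaks in all 4 libraries): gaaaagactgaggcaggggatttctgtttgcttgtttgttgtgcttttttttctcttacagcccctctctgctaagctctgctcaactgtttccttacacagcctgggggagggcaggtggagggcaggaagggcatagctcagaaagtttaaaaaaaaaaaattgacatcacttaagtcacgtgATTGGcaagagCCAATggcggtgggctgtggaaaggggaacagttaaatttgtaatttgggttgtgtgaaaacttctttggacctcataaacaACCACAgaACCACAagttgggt

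Plxna2, Lrrk2 and Rptor held none of the motifs searched in these windows, whereas the start of Runx1 at its 5′ end held 2 matches to each of CCAAT and TGTGGT. Over all host genes with a listed promoter, the motif shares lay close to those of coding genes with room for such a region. CCAAT was found in 41.4% of 985 host genes and 42.5% of 13585 genes, and TGTGGT in 15.7% and 16.4%. The C/EBP letters TTGCNNAA were found in 12.7% of host genes, with a 95% interval of 10.7 to 14.9, against 11.2%. The AP-1 letters TGANTCA were found in 7.51% against 7.82%, and the PU.1 letters GAGGAAGT in 4.06% (2.92 to 5.49) against 3.42%. All intervals in this text are exact Clopper-Pearson intervals at 95% and cover counting error only.

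The control-only regions were set beside the other regions that met the same limits on position. Gene-body distal regions numbered 11285, and 15.3% of them were control-only, against 13.9% of all merged regions. Both shares are set by the rule and are given as background only. The most frequent pattern was a peak in control 2 alone, with 5997 regions, and 1489 regions had a peak in control 1 alone. Only 64 had a peak in both esculetin libraries and in neither control, 313 were called in all 4 libraries and 349 were missing from esculetin 1 alone.

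**Figure D1:**
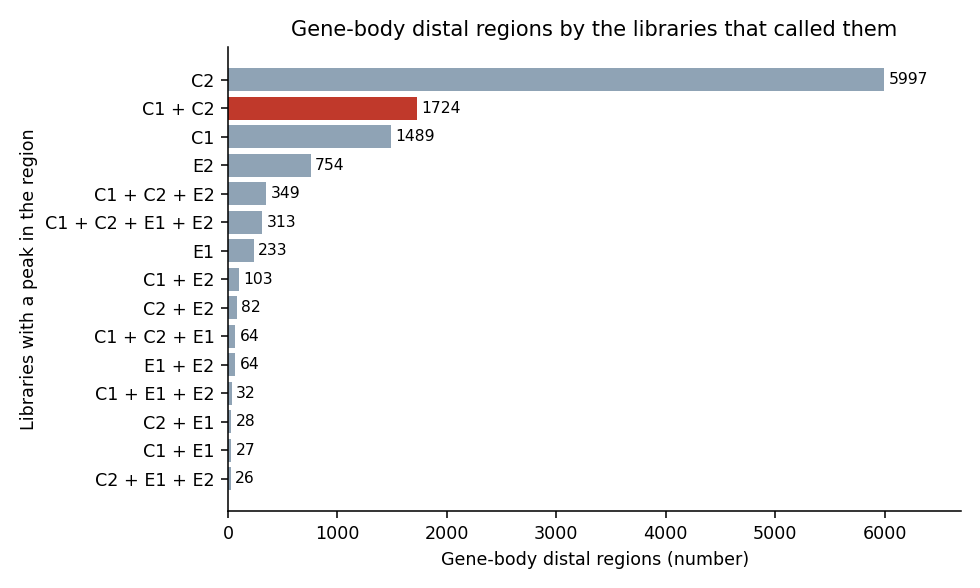
Number of gene-body distal regions (horizontal axis) for each combination of libraries with a peak in the region (vertical axis; C1 and C2 are the control libraries, E1 and E2 the esculetin libraries). The red bar marks the 1724 control-only regions, which were the second most frequent pattern after the 5997 regions called in control 2 alone.

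The control-only regions were of middle rank in the lists that called them. Each peak was given its percentile by −log10 q within the list of its own library, where 100 is the strongest peak. The median percentile was 46.4 in control 1 and 41.6 in control 2. For regions called in control 1 alone it was 21.3 in that list, and for those called in control 2 alone it was 44.2. For regions called in all 4 libraries it was 76.4 and 66.9 in the controls and 54.9 and 64.0 in the esculetin libraries, and for those missing from esculetin 1 alone it was 59.9 and 55.4 in the controls and 33.0 in esculetin 2. Of the 1724 regions, 442 (25.6%) ranked above the median of both control lists and 163 (9.45%) were among the 8559 strongest peaks of both. Across regions the percentiles of the 2 control lists had a Spearman correlation of 0.45 over the 1724, which share these 2 libraries, and of 0.74 over the 313 regions called everywhere.

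The summits, where coverage was highest, lay close together in the 2 controls. The median distance between them was 30 bp, and 68.5% were within 50 bp of each other, against 66.8% for regions called in all 4 libraries. The median summit coverage was 32 reads in control 1 and 26 reads in control 2, over the 1724 and 1718 regions for which it could be solved. Regions called in all 4 had medians of 43 and 35 reads in the controls and 31 and 33 in the esculetin libraries, over 288, 291, 285 and 287 of the 313. Coverage was not solved for peaks of −log10 p above 60, so that the strongest peaks are missing from these medians and those of the regions called in all 4 are understated. The median width of a control-only region was 360 bp, and that of a region called in all 4 was 554 bp.

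That no esculetin peak overlapped a control-only region was fixed by the rule, and the distance to the nearest one varied. The median gap from a control-only region to the nearest esculetin peak was 29919 bp, and 39 of 1724 (2.26%) had one within 1 kb. An esculetin peak lay within 10 kb of 21.4% and within 50 kb of 63.9%. For regions called in control 2 alone the shares were 1.07%, 21.7% and 72.4%. Of the 1266 host genes, 420 (33.2%) held another gene-body distal region that was called in at least 1 esculetin library. The same share over other coding genes is not given here, so that the 33.2% has no background beside it. A gene-body distal region called in all 4 libraries was held by 75 host genes (5.92%) and by 219 of 15672 other long coding genes (1.40%), which are those of known strand with at least 1 base pair that met the limits on position, and host genes were longer than coding genes with room, with medians of 84.3 and 25.3 kb.

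**Figure D2:**
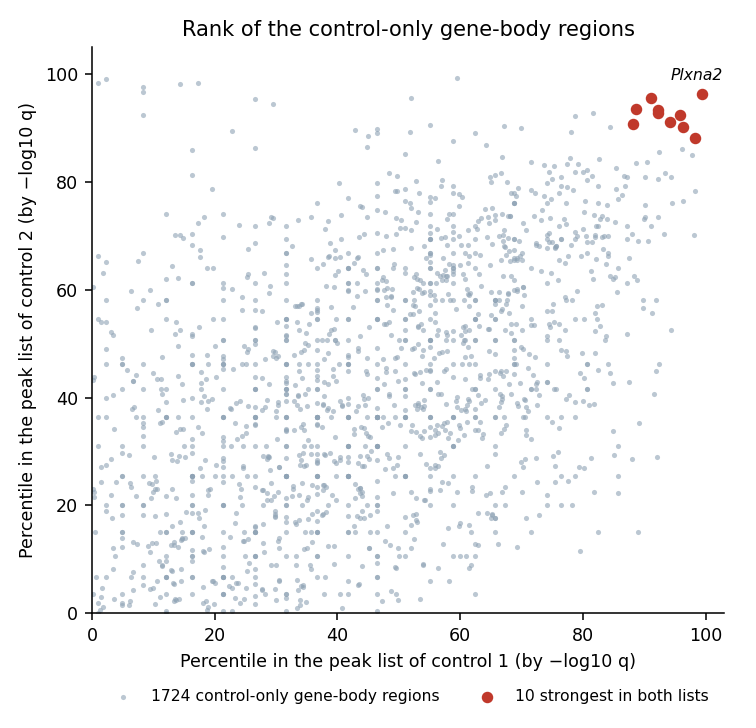
Percentile by −log10 q of each of the 1724 control-only regions in the list of control 1 (horizontal axis) and of control 2 (vertical axis), with the 10 regions of highest lower percentile in red and the strongest, in Plxna2, named. The points fill the middle of both lists, and the red points all lie above the 88th percentile in both.

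The region of highest rank in both controls lay in Plxna2 (chr1:194671732-194672410), which encodes plexin A2, a receptor for semaphorins. Its peak was at percentile 99.4 in control 1 and 96.4 in control 2, with a summit fold of 7.36 and 8.84 over background and summits 3 bp apart. The nearest peak was 322889 bp away in esculetin 1 and 51783 bp away in esculetin 2. Both control values were thus near the top of their lists while neither esculetin list held a peak within 50 kb.

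Next in rank was a region in Ctns (chr11:73192979-73193469), the gene of the lysosomal cystine transporter cystinosin. It was at percentile 95.8 in control 1 and 92.5 in control 2, 5795 bp from the nearest TSS. St6galnac3, a sialyltransferase gene, followed with 92.3 and 92.9. Atg10, which encodes an enzyme of autophagosome formation, had 92.3 and 93.4, at 0.0632 of the gene length from the 5′ end. Lrrk2, a kinase of vesicle and lysosome traffic that is expressed in macrophages, had 94.2 and 91.2.

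Regions in Foxn2, Tnr, Ank2 and Brdt were also among the 10 strongest. Foxn2 encodes a transcription factor, Tnr the matrix protein tenascin R, Ank2 the membrane adaptor ankyrin B and Brdt a bromodomain protein of the testis. Foxn2 was at percentile 91.2 in control 1 and 95.6 in control 2, with the highest fold of the 10 in control 2 at 11.6. Ank2 had the highest fold of the 10 in control 1 at 8.31. In all 10 the percentile was above 88 in both controls and the summits of the 2 controls lay at most 72 bp apart. Those in Ctns, Atg10 and Foxn2 had an esculetin peak within 25 kb.

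At the other end, the region in Boc, a receptor that binds hedgehog ligands, was at percentile 12.1 in control 1 and 0.115 in control 2. The region in Slc9a4, a sodium/proton exchanger gene, was at 0.896 and 0.122, and that in Rere, a corepressor gene, at 0.143 and 43.2. Such regions were near the calling limit in at least 1 control. The region just inside the limit of 3 kb lay in Atxn7l1, 3016 bp from a TSS, and had percentiles of 33.3 and 8.93. One just outside it, in Bbs9 at 2966 bp, had 14.2 and 62.1. At the limit of 1 kb from a 3′ end, a region in Nsmce4a at 1008 bp had 26.6 and 68.7, and one in Kdr at 999 bp had 81.1 and 9.59.

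The position within the host gene was not part of the rule beyond the limits at the ends. The median control-only region lay at 0.483 of the gene length from the 5′ end, where 0 is the 5′ end and 1 the 3′ end. Regions called in control 1 alone had a median of 0.507, those called in all 4 libraries 0.432 and those called in control 2 alone 0.698. When genes were cut into 10 equal parts, the interval of the control-only regions held the share of base pairs that could hold a region in 9 of the 10. In part 3 they were more frequent, with 13.5% (11.9 to 15.2) against 10.3% of those base pairs. In the last part they made up 9.35% (8.02 to 10.8), against 9.09% of base pairs, while regions of control 2 alone made up 19.97% (18.97 to 21.0). The regions of control 2 alone thus became more frequent toward the 3′ end, and the control-only regions, which also needed a peak in control 1, did not. With control 1 left out of the rule, the median position was 0.653 over 7731 regions. Regions in 1 gene are not independent, so that these intervals are too narrow as an error for the position.

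**Figure D3:**
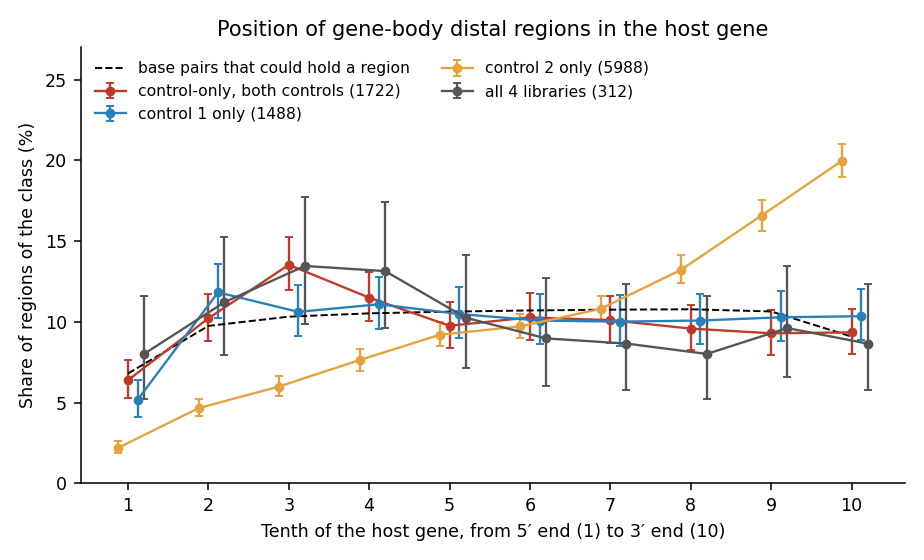
Share of the regions of each class (vertical axis, %) in each of 10 equal parts of the host gene from 5′ to 3′ end (horizontal axis), with 95% Clopper-Pearson intervals as bars and the share of base pairs that could hold a region as a dashed line. Control-only regions stay near the dashed line, from 6.39% in the first to 9.35% in the last part, whereas regions of control 2 alone go from 2.20% to 19.97%.

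Most control-only regions lay well away from a start. The median distance to the nearest TSS was 17863 bp, with quartiles of 8990 and 34754 bp, against a median of 12571 bp for regions called in all 4 libraries and 15191 bp for those of control 2 alone. Of the 1724, 8.76% were 3 to 5 kb from a TSS and 5.10% were more than 100 kb away. The regions called in all 4 had 16.6% and 3.19% in these bins.

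The 1724 regions fell into 1266 host genes, which is 7.42% of the coding genes with room for a region. A gene had room if at least 1 base pair of it met the limits on position. Of the host genes, 966 held 1 region, 198 held 2 and 102 held 3 or more. The host genes had a median length of 84.3 kb, against 25.3 kb for all coding genes with room. Hosts made up 1.42% of long coding genes of at most 20 kb and 5.93% at 20 to 50 kb. They made up 12.8% at 50 to 100 kb, 20.1% at 100 to 200 kb, 27.8% at 200 to 500 kb and 21.9% above 500 kb. The number per Mb that could hold a region was 1.94 over all genes. It lay between 2.34 and 2.69 for the length classes up to 200 kb, was 1.75 at 200 to 500 kb and 0.546 above 500 kb. As a share of gene-body distal regions, control-only calls went from 7.97% in genes of at most 20 kb to 23.5% in genes of 200 to 500 kb.

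The gene with the most control-only regions was Pde4d, a phosphodiesterase that degrades cyclic AMP, with 11 regions in 1302 kb. Their percentiles ranged from 4.80 to 93.3 in control 1 and from 1.86 to 86.6 in control 2. No promoter peak was called for Pde4d in any library, and its 16 gene-body distal regions included 1 with an esculetin call. Long genes can hold many regions by length alone, and per length Pde4d had 0.879 per 100 kb that could hold one.

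Gas7, which encodes an adaptor of actin and membrane shape, held 10 regions in 236 kb, or 4.35 per 100 kb. Of its 14 gene-body distal regions, 2 were called in control 1 alone, 2 in control 2 alone and none in an esculetin library. The strongest (chr11:67526398-67527204) had percentiles of 85.4 and 82.6, and the weakest by the lower value had 19.9 and 1.79. The smallest gap from any of the 10 to an esculetin peak was 456902 bp in esculetin 1 and 429467 bp in esculetin 2. Gas7 also had no promoter peak in any library.

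Lrmp, which encodes a membrane protein of the endoplasmic reticulum in lymphoid cells, held 5 regions in 63.2 kb. It was 1 of 11 genes with 5 regions, of which the 4 with most regions per length, Lrmp, Fli1, Nfatc2 and Ubash3b, are described here by the rule for named genes. The region at chr6:145148960-145149444 was at percentile 90.5 in control 1 and 83.7 in control 2, with summits 1 bp apart. The other 4 had percentiles of 10.3 to 66.7 in control 1 and 1.77 to 59.6 in control 2. No gene-body distal region of Lrmp was called in an esculetin library.

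Fli1, an ETS factor of blood cells, held 5 regions with percentiles of 39.6 to 74.8 in control 1 and 32.6 to 81.7 in control 2. Of its 10 gene-body distal regions, 2 were called in an esculetin library. One region (chr9:32516436-32517065) was 261 bp from a peak of esculetin 2 and another (chr9:32509790-32510124) was 5592 bp from it. Nfatc2 and Ubash3b also held 5 each. Nfatc2 encodes a calcium-dependent transcription factor, and its strongest region was at percentile 98.1 in control 1 and 70.1 in control 2. Ubash3b encodes a phosphatase that dampens tyrosine kinase signals, and its regions had percentiles of 17.8 to 72.9 in control 1 and 19.03 to 57.5 in control 2.

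Arhgap24, which encodes an activator of GTP hydrolysis by Rac, held 8 regions. The 4 between 0.393 and 0.423 of its length had percentiles of 3.45 to 72.8 in control 1 and 51.7 to 72.5 in control 2. Ank2 held 7, Plxna2 held 6 and Rptor, the gene of the mTORC1 subunit raptor, held 6. In Rptor the percentiles ranged from 3.58 to 75.4 in control 1 and from 2.60 to 54.1 in control 2. One of its regions was 178 bp from a peak of esculetin 1, and it was the lowest by rank in both controls.

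Genes that specify macrophages were examined from a list. Of 22 macrophage identity genes with room, 2 held a control-only region (9.09%), Csf1r and Spi1, against 7.42% over all genes. Of the 18 gene-body distal regions in the genes of this list, 11.1% were control-only, against 15.3% over all genes. Csf1r, the receptor for the growth factor M-CSF, had a region 3052 bp from its TSS, close to the limit, at percentile 77.1 in control 1 and 52.5 in control 2. It was the only gene-body distal region of the gene in these lists. The region in Spi1 (chr2:91096528-91096855), 14318 bp from the TSS, was at 33.4 and 54.1, and Spi1 had promoter peaks in all 4 libraries.

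Of 28 myeloid transcription factor genes with room, 10 held 24 regions (35.7% of genes, 8.17 per Mb), against 7.42% and 1.94 per Mb over all genes. The strongest were in Ikzf1, Fli1, Etv6 and Tcf4. Ikzf1 encodes Ikaros, a factor of blood cell lineages, and its region (chr11:11763118-11763728) was at percentile 82.5 in control 1 and 79.3 in control 2. That in Etv6, an ETS repressor, was at 65.2 and 68.5, and that in Tcf4, an E-protein, at 64.1 and 75.1. Runx1, a factor that forms blood stem cells and named after its values were seen, held 4, of which the strongest was at 72.0 and 53.6. Of the 79 gene-body distal regions in the genes of this list, 30.4% were control-only, against the 15.3% over all genes. The median length of the genes of this list was 101 kb. Of all long coding genes of 100 to 200 kb, 20.1% were hosts.

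Scavenger receptor and phagocytosis genes had the largest share of hosts among the lists described here, with 13 of 25 (52.0%) and 5.59 regions per Mb. Of their 46 gene-body distal regions, 41.3% were control-only. The median length of these genes was 83.0 kb, above the 25.3 kb of all coding genes with room. Of all long coding genes of 50 to 100 kb, 12.8% were hosts. The strongest region of the list was in Vav3, a guanine nucleotide exchange factor. It was at percentile 84.0 in control 1 and 73.1 in control 2, with both summits at the same base. Wdfy3, a scaffold of selective autophagy, had a region at 65.7 and 73.0. Dock1, an exchange factor for Rac in engulfment, had one at 55.8 and 59.1, and Megf10, an engulfment receptor, one at 40.4 and 66.0.

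The values of 4 other hosts of this list, Cd36, Msr1, Scarb1 and Axl, are given after they were seen. Cd36, the fatty acid and oxLDL receptor, had one (chr5:17857346-17857593) at percentile 55.1 in control 1 and 32.7 in control 2, while 1 other region of the same gene was called in all 4 libraries. Msr1, the class A scavenger receptor, had one at 41.6 and 20.03, and Scarb1, the receptor for high-density lipoprotein, one at 55.1 and 20.03. That in Axl, a receptor for dying cells, was at 31.5 and 31.0 and lay 319 bp from a peak of esculetin 2. No promoter peak was called for Cd36, Msr1 or Axl in any library. Other hosts of this list were Dock2, Dock8, Elmo1, Lrp1 and Rac1.

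Of 34 cholesterol and lipid genes with room, 6 held a control-only region (17.6%, 4.96 per Mb), against 7.42% and 1.94 per Mb over all genes. Of their 48 gene-body distal regions, 18.75% were control-only, against 15.3% over all genes. Ppard, a nuclear receptor for fatty acids, held 3, and the strongest was at percentile 70.1 in control 1 and 66.9 in control 2. Osbpl3, an oxysterol-binding protein gene, had one at 66.4 and 69.9. Soat1, the enzyme that forms cholesteryl esters in foam cells, had one at 58.8 and 78.0, and Pparg, a nuclear receptor of lipid storage, had one at 54.5 and 45.2. The last 2 hosts were Npc2 and Slc27a1.

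The Toll-like receptor and NF-kB list had 5 hosts among 31 genes (16.1%), with 8.31 regions per Mb in genes of 23.2 kb median length. Control-only calls made up 31.6% of the 19 gene-body distal regions of this list. Tlr4, the receptor for lipopolysaccharide, had its region (chr4:66843306-66843591) at percentile 68.7 in control 1 and 69.4 in control 2, 15477 bp from the nearest peak of esculetin 2. Irak3, an inhibitor of the pathway, had one at 47.4 and 36.5, Nfkb1 had its stronger one at 34.5 and 31.0, and Map3k8, a kinase of the pathway, had one at 55.1 and 25.5. The fifth was Irak2, at 10.9 and 9.76. Of the 6 regions, the one in Tlr4 alone ranked above the median of both control lists.

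Of 34 kinase and phosphoinositide genes, 15 were hosts (44.1%, 4.47 per Mb). Their median length was 79.6 kb, and 12.8% of all long coding genes of 50 to 100 kb were hosts. Control-only calls made up 23.7% of the 97 gene-body distal regions of this list. The strongest regions were in Prkca, a protein kinase C gene, at percentile 93.3 in control 1 and 81.7 in control 2, and in Plcb4, a phospholipase C gene, at 96.3 and 76.4. Pik3r5, a regulatory subunit of PI3-kinase gamma, had 65.0 and 80.0. Lyn, a Src-family kinase of myeloid cells, was also a host, with 3.

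The osteoclast list, of interest because RAW264.7 cells can form osteoclasts, had 5 hosts among 14 genes (35.7%) and 11.4 regions per Mb. They were Atp6v0d2, Nfatc1, Ppargc1b, Src and Tnfrsf11a. Control-only calls made up 35% of the 20 gene-body distal regions of this list. The region in Atp6v0d2, a subunit of the proton pump, was at percentile 75.3 in control 1 and 83.0 in control 2 but lay 164 bp from a peak of esculetin 2. Tnfrsf11a, which encodes RANK, held 3, and the strongest was at 76.2 and 53.7. None of the 14 genes had a promoter peak in all 4 libraries.

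The lysosome and autophagy list had 5 hosts among 25 genes (20%), which included Atg10 above and Ctsb, the gene of cathepsin B, at percentile 52.0 in control 1 and 95.6 in control 2, with summits 322 bp apart. Integrins and adhesion had 4 of 23 (17.4%), with the strongest region in Itgb2, the beta chain of leukocyte integrins, at 58.8 and 74.1. Control-only calls made up 19.4% of the 31 gene-body distal regions of the lysosome list. For the 33 of the integrin list the share was 15.2%, against 15.3% over all genes. Chromatin regulators had 7 of 32 (21.9%, 2.38 per Mb), and the 148 gene-body distal regions of these genes were control-only in 6.76%. Arid1b, a subunit of the BAF remodelling complex, had the strongest of them at 82.6 and 84.3.

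The lists of other cells served as a comparison. Among 24 genes of other cell types no host was found, and among 21 kidney epithelium genes Hnf4a and Cubn were hosts (9.52%, 1.23 per Mb). Hnf4a had its region at percentile 47.8 in control 1 and 45.4 in control 2. Of 22 neuronal adhesion and synapse genes, 6 were hosts (27.3%), but these genes had a median length of 1467 kb and 0.389 regions per Mb. Control-only calls made up 24% of their 50 gene-body distal regions and 13.3% of the 15 of the kidney list. Abundant transcripts had 3 hosts among 24 genes, Lcp1, Msn and Myh9, and 14.5 regions per Mb from 6 regions in 0.413 Mb. Of the 54 gene-body distal regions of this list, 11.1% were control-only, against 15.3% over all genes. In Lcp1, which encodes the actin bundler plastin of leukocytes, the strongest was at 61.3 and 59.2.

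**Figure D4:**
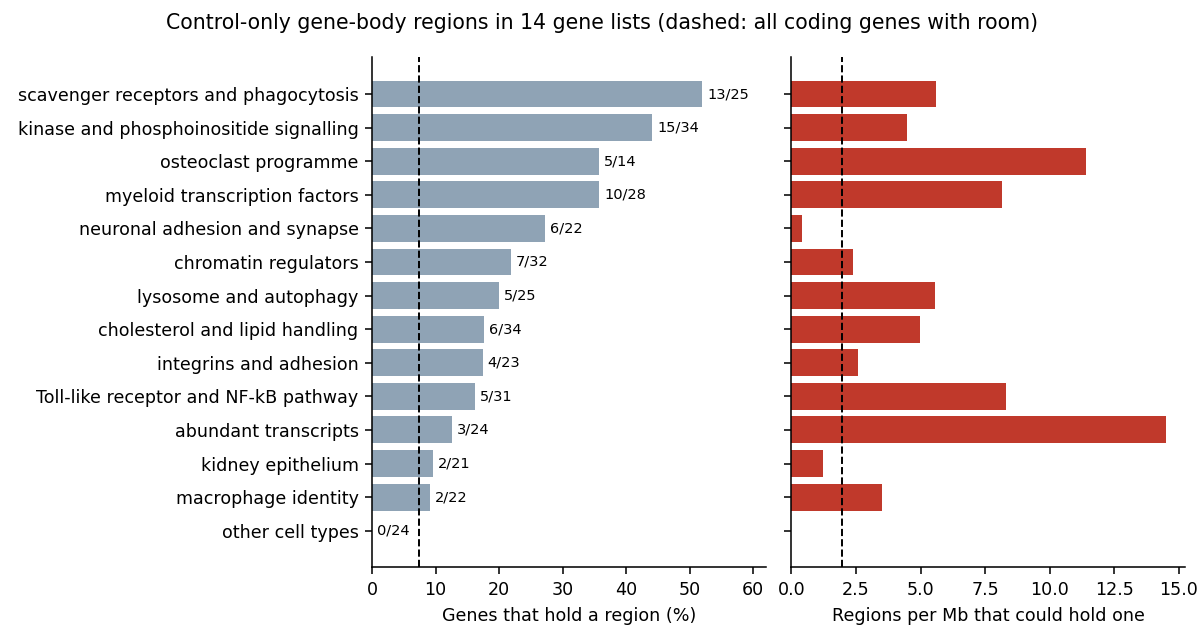
Share of the genes with room in 14 gene lists that held a control-only region (left, %; hosts and genes beside each bar) and number of control-only regions per Mb that could hold one (right), with the values of all coding genes as dashed lines at 7.42% and 1.94 per Mb. Scavenger receptor and phagocytosis genes have the longest bar on the left at 52.0%, abundant transcripts on the right at 14.5 per Mb, and other cell types have none. Control-only calls were 11.1% of the gene-body distal regions of abundant transcripts, against 15.3% over all genes.

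The genes of the lists differ from all coding genes in length and in promoter peaks, and the part of either in these shares was not tested. The lists were chosen with earlier results of these data known, so that the counts describe them and support no claim on the lists.

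Chromosome X held 6 of the 1724 regions (0.348%, interval 0.128 to 0.756), although 4.49% of the base pairs that could hold a region lay there. This was 0.150 per Mb, against 1.35 to 2.88 per Mb on the autosomes. Regions called in control 1 alone had 0.336% on X and regions called in all 4 libraries 0.958%, whereas those of control 2 alone had 3.84%, or 230 of the 257 gene-body distal regions of X. Named after their values were seen, the 6 lay in Msn (2), which encodes moesin, and in Atg4a, Iqsec2, Ptchd1 and Arhgap6. The strongest, in Arhgap6, was at percentile 65.7 in control 1 and 50.7 in control 2.

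Promoter peaks were not part of the rule, but they come from the same 4 lists whose calls chose the host genes, so that their shares are given as a description. Peaks within 1 kb of any TSS of the gene were counted in 1264 host genes with a known strand. Of them, 60.3% had a promoter peak in control 1 and 62.8% in control 2, and 41.5% in esculetin 1 and 51.8% in esculetin 2. Over the 16936 long coding genes the shares were 46.2% and 47.7% in the controls and 34.2% and 43.1% in the esculetin libraries. In every library the host genes thus had a promoter peak more often than all long coding genes, and both sets had lower shares in both esculetin libraries than in both controls.

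The excess of the host genes over long coding genes was 14.1 and 15.1 percentage points in controls 1 and 2, and 7.38 and 8.75 points in esculetin 1 and 2. The mean excess was 14.6 ± 0.705 points (SD, n = 2) in the controls and 8.06 ± 0.972 points (SD, n = 2) in the esculetin libraries, a difference of -6.52 points. The host genes were chosen for calls in both control lists and the control lists were the longer ones, so that the size and direction of this difference were not independent of the choice, and no test is read from it. With control 1 left out of both the rule and the comparison the difference was -2.60 points, and with control 2 left out it was -4.22 points.

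**Figure D5:**
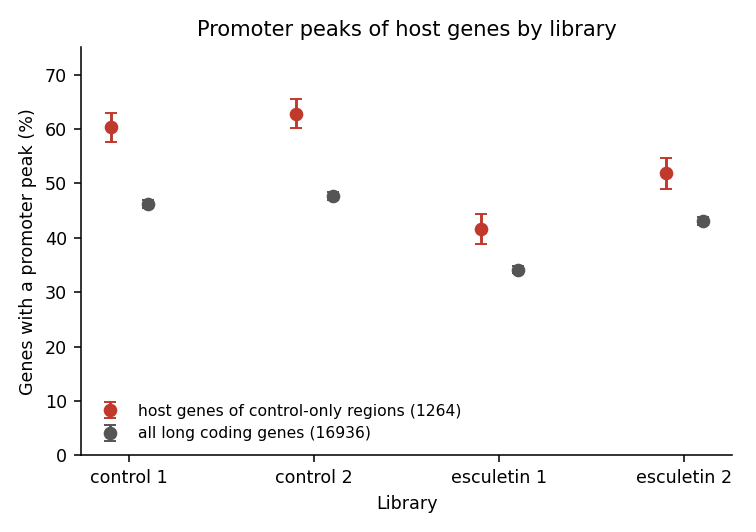
Share of genes with a peak within 1 kb of a TSS (vertical axis, %) in each library (horizontal axis), for the 1264 host genes (red) and all 16936 long coding genes (grey), with 95% Clopper-Pearson intervals as bars. The red points are above the grey points in all 4 libraries, by 14.1 and 15.1 points in the controls and by 7.38 and 8.75 points in the esculetin libraries.

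Genes without any promoter peak had fewer control-only regions per length. They had 1.02 per Mb that could hold one, against 3.02 per Mb in genes with a promoter peak in all 4 libraries and 3.36 in those with one in 1 to 3 libraries. Regions called in control 2 alone had 2.35, 15.3 and 9.36 per Mb in the same order, and those of control 1 alone 1.13, 2.27 and 2.72. As a share of gene-body distal regions the order was another: 16.4% were control-only in genes without a promoter peak, 12.8% in genes with one in all 4 libraries and 17.7% in genes with one in 1 to 3. Among the 1264 host genes, 476 (37.7%) had a promoter peak in all 4 libraries, against 30.8% of long coding genes. No promoter peak in any library was found for 400 (31.6%), against 46.9% of long coding genes. A promoter peak in both controls only was found for 97 (7.67%), which was the case for 4.26% of long coding genes. Named after their values were seen, Runx1, Gnaq, Cadm1 and Macrod2 were among the genes with promoter peaks in all 4 libraries and several control-only regions inside. Gnaq encodes a G-protein alpha subunit, and its promoter peak was at percentile 38.1 and 76.7 in the controls and 65.7 and 63.3 in the esculetin libraries, while it held 5 control-only regions and no gene-body distal region with an esculetin call. Cadm1, a cell adhesion gene, had promoter percentiles of 98.3 and 90.9 in the controls and 90.3 and 89.2 in the esculetin libraries, and held 5. In both genes the promoter was thus called in every library that lacked the regions inside, although 3 other gene-body distal regions of Cadm1 had an esculetin call.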

How the data were processed

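The authors trimmed reads with Trim Galore, aligned them with Bowtie2 (build mm10), dropped PCR copies and reads with several matches, and called peaks with MACS2. One list was deposited per library. The options of MACS2 are not given in the sources used here, and loss of reads with several matches lowers signal in repeats. The deposited lists give a score, the summit fold over background as a linear ratio, and −log10 p and −log10 q as the caller wrote them. They hold no read counts, so no count model was run. Names inside the lists of esculetin 1 and 2 read E2 and E3, and groups follow the labels.

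All peaks on chromosomes 1 to 19 and X were merged at 1 bp of overlap. Percentiles were taken by −log10 q over a whole list. Summit coverage and background were solved from fold and −log10 p (up to 60), a step tested on simulated data, and the lowest background of a list gave its depth. Genes came from a RefSeq table of GRCm38.p6. Strand came from RefSeq promoters or, by symbol, from GENCODE vM39, without its coordinates (the same strand in 21876 of 22003 genes with both). Start sites were the 5′ end and all listed promoters of a gene, and both ends where no strand was known. Exons and introns were not used here. Motifs were searched in promoters only.

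Regions and gene lists were chosen with earlier results of these data known. Named genes are those of the 10 regions of highest lower percentile in the controls, the 10 genes with most regions (ties by number per length), up to 4 hosts per list by the same measure, other hosts of a list, and regions at the limits of the rule. Others are said to be named after their values were seen. A few items, 1 gene list among them, are not reported here. The planned two-sided exact permutation test of promoter shares over libraries is not used in the results, because the host genes were chosen by calls in the same lists. The software was SciPy 1.17.1, NumPy 2.4.6, pandas 2.3.3, matplotlib 3.10.9 and Python 3.11.15.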

Additional observations from a re-analysis of the deposited data

How the results depend on the processing

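Alternatives were run one at a time. The number of control-only gene-body regions stayed within 1.5 times of 1724 under 10 of 13 alternatives. Both controls set it. Without control 1 it was 7731 (78.8% of gene-body distal regions, median position 0.653), and without control 2 it was 3237 (60.9%). Without 1 library the number ranged from 1788 to 7731, the share from 16.2% to 78.8% and the median position from 0.477 to 0.653. With equal numbers of top peaks in every library (8559, the length of the shortest list) 193 regions were found, or 5.21%, as a region then had to be among those peaks in both controls. With 3 kb in place of 1 kb from 3′ ends, or 3 kb from both ends of every gene, which chooses the same regions, the share was 16.6%. A stricter limit of −log10 q at 3, peaks covering 50% of a region, 5 kb from start sites, genes with no strand left out, and no overlap with pseudogenes kept the share within its interval of 14.6 to 16.0%, as did the 5′ end as the only start site of a gene, an alternative chosen after seeing the data.

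The difference in excess promoter share kept its negative sign under all 15 alternatives, from -8.81 to -2.60 percentage points. It was -2.60 points without control 1 and -4.22 without control 2, which moved it by over 1.5 times. The planned two-sided exact permutation test gave p = 0.33, the smallest that 6 assignments allow, and p = 0.67 without control 1. It kept the host genes fixed although calls in the same lists chose them, so that neither the p nor the sign supports a difference between the groups. Permutation within same-numbered pairs, as a replicate block, left the difference at -6.52 points with an exact p of 0.50, the smallest that 4 paired assignments allow. The labels give same-numbered libraries only a shared number, and names inside the esculetin lists read E2 and E3. The correlation of control 1 minus control 2 with esculetin 1 minus esculetin 2 was -0.05 over the promoter percentiles of 16936 genes. These genes are not independent, and those without a peak entered as 0. The correlation therefore cannot show whether same-numbered libraries shared a batch. With 2 libraries per group and no read counts, a missing peak is a value under a limit that differed between libraries and is not a measured loss of signal.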
